A study of Mus musculus with 9 samples.

Results

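The 9 genes described here handle retinoic acid, the active derivative of vitamin A. They were chosen by name for their roles, with earlier results of these data known, and make up 9 of the 24100 genes in the count table. They are Stra6, Crabp1, Crabp2, Rdh10, Dhrs3, Aldh1a2, Cyp26a1, Cyp26b1 and Rarb, and all 9 had enough reads to be tested.

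Cells take up retinol from its carrier in blood and oxidise it to retinaldehyde and then to retinoic acid. Retinoic acid enters the nucleus and binds receptors that sit on DNA as a pair with a retinoid X receptor, and enzymes of the Cyp26 family destroy it. In the embryo it patterns the hindbrain and spinal cord and drives neurons to form, and it is a common additive for turning stem cells into neural cells. Some of the genes that bind or destroy it, among them Rarb and Cyp26a1, are themselves switched on by it.

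Poly(A) RNA was sequenced from 9 libraries of mouse cells that are neural by label and were grown out of embryonic stem cells. Each culture carried a stable PiggyBac (DNA transposon) insertion that expresses histone H4 with a triple HA tag, and the tag and the transposon are thus common to all groups, controls included. The insert encoded wild-type H4 in 3 libraries (H4WT), H4 with lysine 91 replaced by arginine in 3 (H4K91R) and by glutamine in 3 (H4K91Q). The descriptions carry the tag 4Ddif, which the labels do not explain. The labels name no parental line, clone number, culture medium or added retinoic acid, and there is no untransfected control among these libraries. Whether the replicates are separate lines or differentiations is not labelled either, so p-values measure only the spread between these libraries.

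Library totals ran from 8970553 to 28887501 counts. The mutation lies in a transgene that gene counts do not separate from the cells' own H4 genes, so the labels could not be checked in this way. Of the neuron markers and the neural progenitor markers, 10 of 10 each were detected in every group, and 9 of 10 of each rose in each mutant. The remaining progenitor marker, Nes, fell in H4K91Q, from a mean of 168 CPM in H4WT to 119 CPM. Summed neuron marker levels ran from 318 to 401 CPM (the usual count unit relative to the library total, here the total scaled by the TMM method) in H4WT, 932 to 1125 in H4K91R and 765 to 811 in H4K91Q. Summed neural progenitor levels ran from 234 to 301 CPM in H4WT, 665 to 755 in H4K91R and 474 to 546 in H4K91Q. All 10 fibroblast and mesenchyme markers were detected too, at a sum of 5807 to 6770 CPM in H4WT, 6379 to 7255 in H4K91R and 6768 to 7441 in H4K91Q. Of these markers, 3 rose and 2 fell in H4K91R, and 4 rose and 2 fell in H4K91Q. The sum of 8 smooth muscle markers, all detected, ran from 4020 to 4834 CPM in H4WT, 483 to 768 in H4K91R and 452 to 508 in H4K91Q. Of the tested markers of other cells, surface ectoderm had 0 rises and 7 falls of 9 in H4K91R and 1 and 6 in H4K91Q, endoderm 1 and 3 of 8 and 1 and 4, meninges 2 and 2 of 5 in each, and mesoderm 4 and 0 of 5 and 5 and 0. Pluripotency markers had 0 rises and 7 falls of 8 in H4K91R and 6 rises and 1 fall in H4K91Q, and immediate-early genes 2 and 7 of 10 and 2 and 6. Several of these marker levels differed between groups, as did the retinoic acid genes below, while others, such as the fibroblast sums, overlapped. Their part in the results was not tested. In bulk RNA, fewer cells of a type and less RNA per cell cannot be told apart.

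Against H4WT, both mutants had more mRNA of the synthesis enzyme Aldh1a2 and less of the breakdown enzyme Cyp26a1 and of the retinol importer Stra6. Rarb, a receptor, and Crabp1, a binding protein, passed the test as higher in both, though with less separation. Crabp2 and the other breakdown enzyme, Cyp26b1, passed as higher than H4WT in H4K91Q and did not pass in H4K91R. Rdh10 passed in neither comparison, and Dhrs3 passed in H4K91R alone.

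In H4K91R, 4 of the 9 genes rose and 2 fell (edgeR quasi-likelihood test, Benjamini-Hochberg adjusted p below 0.05). Of all 14761 tested genes, 20.9% rose and 25.1% fell in that comparison. The median log2 change of the 9 genes was 0.44, and that of all tested genes was -0.030. In H4K91Q, 5 rose and 2 fell, where 22.5% of tested genes rose and 23.8% fell, with medians of 0.64 and 0.013. Both comparisons use the same H4WT libraries and are not independent of each other. The choice of scaling bears on these splits. With library size alone, 5 rose and 2 fell in H4K91R and 6 rose and 2 fell in H4K91Q, and the share of rises among all called genes went from 45.5% to 71.4% in H4K91R and from 48.5% to 72.9% in H4K91Q. That scaling moved the median of all genes by 0.18 and 0.17 on the log2 scale.

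**Figure D1:**
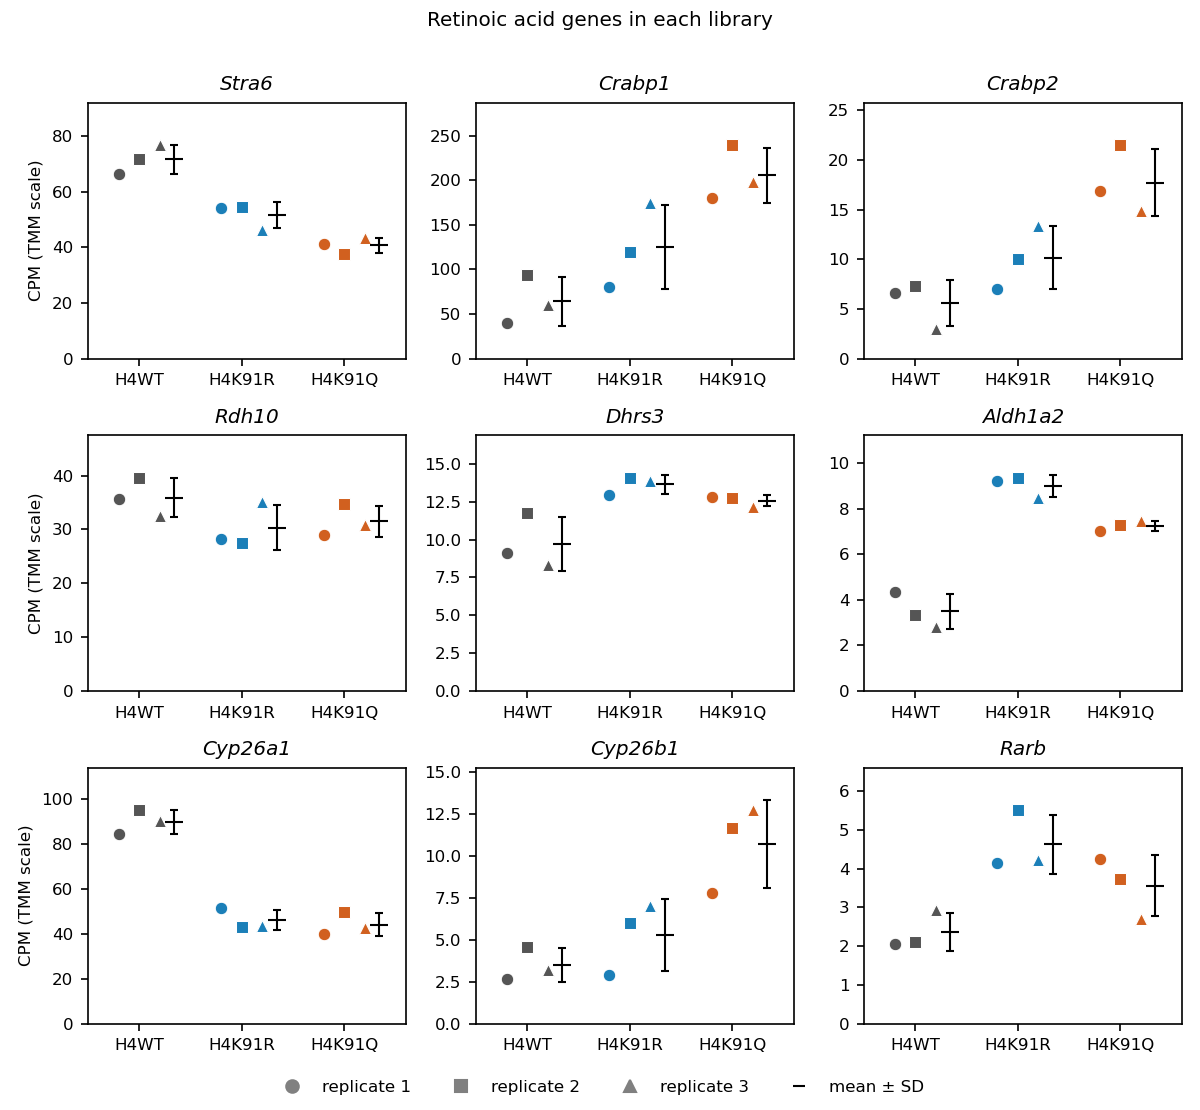
Level of each of the 9 genes in CPM on the TMM scale (vertical axis, starting at 0) in the H4WT, H4K91R and H4K91Q libraries. Each symbol is 1 library and the bar beside it is the mean ± SD of 3 libraries. The 3 H4WT libraries lie below all 6 mutant libraries for Aldh1a2 and Dhrs3 and above all 6 for Cyp26a1 and Stra6.

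Stra6 is the cell-surface receptor that takes up retinol from its plasma carrier (Entrez 20897, chromosome 9, 58063793 to 58154004). It stood at 66.3, 71.8 and 76.7 CPM in H4WT replicates 1, 2 and 3, at 54.1, 54.5 and 46.2 CPM in H4K91R, and at 41.1, 37.6 and 43.2 CPM in H4K91Q. The 3 groups did not overlap, with H4WT highest and H4K91Q lowest. Stra6 fell by 0.47 ± 0.088 on the log2 scale in H4K91R (SE, n = 3 libraries per group, edgeR adjusted p = 7.59e-04) and by 0.82 ± 0.088 in H4K91Q (adjusted p = 9.79e-06). Between the mutants it was lower in H4K91Q, with a log2 change of -0.35 ± 0.088 and an adjusted p of 0.0404. That last call lay near the threshold.

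Crabp1 and Crabp2 encode small cytoplasmic proteins that bind retinoic acid. Crabp2 is known for passing it to the nuclear receptors, and Crabp1 for holding it in the cytoplasm. Crabp1 (Entrez 12903, chromosome 9, 54764748 to 54773110) stood at 39.6, 93.6 and 59.5 CPM in H4WT, at 80.7, 119 and 175 CPM in H4K91R, and at 180, 239 and 197 CPM in H4K91Q. All H4K91Q libraries were above all others, while H4K91R replicate 1 lay below H4WT replicate 2. Crabp1 rose by 0.91 ± 0.28 on the log2 scale in H4K91R (edgeR adjusted p = 0.0177) and by 1.64 ± 0.28 in H4K91Q (adjusted p = 4.03e-04). Its call in H4K91R ended without H4WT replicate 1 (adjusted p = 0.0634), H4WT replicate 3 (0.0534) or H4K91R replicate 3 (0.0871). Over the 9 fits that each left out 1 library, this adjusted p ran from 0.00186 to 0.0871.

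Crabp2 (Entrez 12904, chromosome 3, 87948693 to 87953372) stood at 6.61, 7.30 and 2.94 CPM in H4WT, at 7.02, 10.1 and 13.4 CPM in H4K91R, and at 16.9, 21.5 and 14.8 CPM in H4K91Q. Again the H4K91Q libraries were above all others, and H4K91R replicate 1 lay below H4WT replicate 2. The log2 change was 1.57 ± 0.27 in H4K91Q (edgeR adjusted p = 3.56e-04). In H4K91R it was 0.73 ± 0.28, with an adjusted p of 0.0505 and a 95% interval from 0.12 to 1.34. This value lies at the threshold: it passed with DESeq2 (0.00892), RLE scaling (0.0415), library size scaling (0.0175), no filter on low counts (0.0228) and the replicate block (0.0256). It also passed without H4WT replicate 2 (0.0269), H4K91R replicate 1 (0.0126) or H4K91Q replicate 2 (0.0443), and its adjusted p over the fits without 1 library ran from 0.0126 to 0.183.

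Between the mutants, the H4K91Q and H4K91R libraries did not overlap for the mRNA of either binding protein. The log2 change, H4K91Q against H4K91R, was 0.73 ± 0.27 for Crabp1 (edgeR adjusted p = 0.139, 95% interval 0.14 to 1.31) and 0.84 ± 0.25 for Crabp2 (adjusted p = 0.0715, interval 0.30 to 1.37). Neither passed in this fit. The Crabp2 difference did pass with DESeq2 (0.0439), the replicate block (0.0409), the 2 mutants alone (0.0400) and low-count genes kept (0.0210), and without H4WT replicate 3 (0.0412) or H4K91R replicate 3 (0.0377). Its adjusted p over the fits without 1 library ran from 0.0377 to 0.267. The Crabp1 difference passed with the replicate block (0.0229) and without H4K91R replicate 3 (0.0436), in a range from 0.0436 to 0.383. The Crabp1 counts for every 100 Crabp2 counts were 598, 1282 and 2025 in H4WT, 1149, 1185 and 1305 in H4K91R, and 1065, 1114 and 1332 in H4K91Q. The H4WT values spread across those of both mutants, so this ratio of mRNA counts showed no separation between groups. Crabp2 had only 55 and 24 counts in H4WT replicates 1 and 3, and protein was not measured.

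Rdh10 carries out the first step of synthesis, oxidising retinol to retinaldehyde (Entrez 98711, chromosome 1, 16105882 to 16132550). It stood at 35.7, 39.6 and 32.5 CPM in H4WT, at 28.3, 27.5 and 35.2 CPM in H4K91R, and at 28.9, 34.7 and 30.8 CPM in H4K91Q. The groups overlapped. The log2 change was -0.26 ± 0.11 in H4K91R (edgeR adjusted p = 0.0746, 95% interval -0.51 to -0.018) and -0.20 ± 0.11 in H4K91Q (adjusted p = 0.154, interval -0.44 to 0.038). Neither passed, and the intervals allow a fall of up to 0.51 and 0.44. Without H4K91R replicate 3, the highest of its group, the fall in H4K91R passed at an adjusted p of 0.0155 with a log2 change of -0.38, and over the 9 fits without 1 library the adjusted p ran from 0.0155 to 0.317.

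Dhrs3 works in the opposite direction, reducing retinaldehyde back to retinol (Entrez 20148, chromosome 4, 144892534 to 144928209). It stood at 9.14, 11.7 and 8.33 CPM in H4WT, at 12.9, 14.1 and 13.9 CPM in H4K91R, and at 12.8, 12.8 and 12.1 CPM in H4K91Q. All 6 mutant libraries were above all 3 H4WT libraries. It rose by 0.44 ± 0.13 on the log2 scale in H4K91R (edgeR adjusted p = 0.0155). In H4K91Q the change of 0.32 ± 0.13 did not pass (adjusted p = 0.0560, 95% interval 0.044 to 0.60). Without H4WT replicate 3 the call in H4K91R ended (adjusted p = 0.0550, range over the fits without 1 library 0.00208 to 0.0550). Without H4WT replicate 2, the highest control, the change in H4K91Q passed (0.00737, range 0.00737 to 0.199), as it did with library size scaling (0.00822) and the replicate block (0.0407). The test of H4K91Q against H4K91R gave -0.12 ± 0.12 (adjusted p = 0.625), so the 2 outcomes were not shown to differ.

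Aldh1a2 carries out the second, irreversible step, turning retinaldehyde into retinoic acid, and is the main such enzyme of the early embryo (Entrez 19378, chromosome 9, 71215789 to 71296243). It stood at 4.33, 3.33 and 2.82 CPM in H4WT, at 9.21, 9.36 and 8.47 CPM in H4K91R, and at 7.03, 7.27 and 7.44 CPM in H4K91Q. The 3 groups did not overlap, with H4WT lowest and H4K91R highest. It rose 2.61-fold in H4K91R (log2 change 1.38 ± 0.16, edgeR adjusted p = 1.18e-05) and 2.09-fold in H4K91Q (1.07 ± 0.15, adjusted p = 1.05e-04). Both calls held in all 9 fits without 1 library, with adjusted p up to 1.67e-04 and 0.00138. Between the mutants the change of -0.32 ± 0.13 did not pass (adjusted p = 0.187, 95% interval -0.61 to -0.027).

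Cyp26a1, a cytochrome P450 that breaks retinoic acid down, is a classical direct target of retinoic acid itself (Entrez 13082, chromosome 19, 37697738 to 37701536). It stood at 84.3, 94.8 and 89.9 CPM in H4WT, at 51.2, 43.1 and 43.5 CPM in H4K91R, and at 39.8, 49.6 and 42.6 CPM in H4K91Q. All 3 H4WT libraries were above all mutant libraries, and the mutants overlapped. The fall was 1.95-fold in H4K91R (log2 change -0.96 ± 0.097, edgeR adjusted p = 4.76e-06) and 2.04-fold in H4K91Q (-1.03 ± 0.096, adjusted p = 3.30e-06). Both calls held in all 9 fits without 1 library. Between the mutants the change was -0.067 ± 0.098 (adjusted p = 0.731), with an interval from -0.28 to 0.14.

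Cyp26b1, the second breakdown enzyme, is known in the hindbrain and limb bud (Entrez 232174, chromosome 6, 84571414 to 84593908). It stood at 2.65, 4.59 and 3.18 CPM in H4WT, at 2.88, 5.98 and 6.99 CPM in H4K91R, and at 7.76, 11.7 and 12.7 CPM in H4K91Q. The H4K91Q libraries were above all others, while H4K91R replicate 1 lay within the H4WT range. It rose 2.84-fold in H4K91Q (log2 change 1.51 ± 0.30, edgeR adjusted p = 0.00108). In H4K91R the change was 0.44 ± 0.33 (adjusted p = 0.293, 95% interval -0.27 to 1.15), and without H4K91R replicate 1 it became 0.78 and passed (0.0345, range over the fits without 1 library 0.0345 to 0.675).

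Between the mutants Cyp26b1 was higher in H4K91Q by 1.06 ± 0.28 on the log2 scale, which passed narrowly (edgeR adjusted p = 0.0488). Stra6 and Cyp26b1 were the 2 of the 9 genes that passed in this comparison, 1 fallen and 1 risen, where 2.78% of tested genes fell and 2.37% rose. Both calls were fragile. That of Cyp26b1 ended without H4WT replicate 1 (0.0540) or 3 (0.0630), without H4K91R replicate 1 (0.151) or 2 (0.104), and without H4K91Q replicate 2 (0.167) or 3 (0.0934). Over the fits without 1 library its adjusted p ran from 0.0342 to 0.167, and the call was lost as well in a fit of the 2 mutants alone (0.0511) and when libraries were scaled by RLE (0.0512) or by size (0.0515). That of Stra6 ended without H4K91R replicate 1 (0.140) or 2 (0.148), without H4K91Q replicate 1 (0.112) or 2 (0.152), and with the 2 mutants alone (0.0508), in a range from 0.0240 to 0.152 over the fits without 1 library.

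Rarb encodes retinoic acid receptor beta, the receptor gene that retinoic acid itself induces (Entrez 218772, chromosome 14, 16430839 to 17082331). It stood at 2.04, 2.11 and 2.94 CPM in H4WT, at 4.14, 5.51 and 4.23 CPM in H4K91R, and at 4.25, 3.74 and 2.70 CPM in H4K91Q. All H4K91R libraries were above all H4WT libraries, whereas H4K91Q replicate 3 lay below H4WT replicate 3. It rose 2.01-fold in H4K91R (log2 change 1.005 ± 0.23, edgeR adjusted p = 0.00340), a call kept in all 9 fits without 1 library (adjusted p up to 0.0273). In H4K91Q it rose by 0.64 ± 0.23 (adjusted p = 0.0360). That call ended with DESeq2 (0.0704) and without H4WT replicate 1 (0.0911) or 2 (0.171) or H4K91Q replicate 1 (0.140) or 2 (0.0863), in a range from 0.0129 to 0.171 over the fits without 1 library. Between the mutants the change of -0.36 ± 0.21 did not pass (adjusted p = 0.327, 95% interval -0.81 to 0.086).

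Rarb is also the one of the 9 genes whose annotated exons overlap those of another gene. In GENCODE vM21, 1793 of its 5265 exonic bases (34.1%) are shared with Top2b, a DNA topoisomerase gene on the opposite strand, and 227 with the antisense gene Gm48162. The strand setting of the counting is not given in the sources used here, so part of the Rarb count could have come from Top2b. Top2b stood at 311 to 329 CPM in H4WT, 324 to 345 in H4K91R and 300.6 to 332 in H4K91Q, and its log2 change was 0.059 ± 0.064 and -0.028 ± 0.064 in the 2 mutants. The groups overlapped (edgeR adjusted p = 0.486 and 0.750).

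Rarb and Cyp26a1 are the 2 textbook genes with a retinoic acid response element beside their start, and they are shown here because their mRNA moved in opposite directions. The element searched for is named DR5, a direct repeat of 2 half-sites 5 bases apart. Each half-site was a purine, then G, then G or T, then TCA, and both strands of the RefSeq promoter windows (GRCm38.p6, 250 bases before each start to 50 after) were read. Windows were held for 7 of the 9 genes, 12 windows in all, and none for Crabp2 or Rdh10. In capitals are the half-sites, in lower case the 5-base spacer and 6 flanking bases on each side, 5′ to 3′ along the strand that carries the repeat.
Rarb: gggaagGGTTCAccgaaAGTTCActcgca
Cyp26a1: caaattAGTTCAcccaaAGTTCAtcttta

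The 17-base Rarb repeat lies on the minus strand, that of the gene, at chr14:16575513-16575529, 37 to 53 bases before the RefSeq start. In GENCODE vM21, 2 longer Rarb transcripts hold it in the 5′ UTR of their first exon. The Cyp26a1 repeat lies on the minus strand, opposite to the gene, at chr19:37697776-37697792, 16 to 32 bases before the RefSeq start and 6 bases before that of GENCODE. It also lies inside the RefSeq gene span, which begins at 37697738. Counted from 1 at the 5′ end of the repeat, the Cyp26a1 repeat differs from that of Rarb by G1A and G9C, and the second half-site is the same. DR5 was found in 32 of 32851 windows (0.0974%). The same half-sites 1 base (DR1) or 2 bases (DR2) apart occurred in 0.222% and 0.268% of windows and in none of the 7 genes' windows. A match is a stretch of letters and says nothing of what was bound there in these cells.

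**Figure D2:**
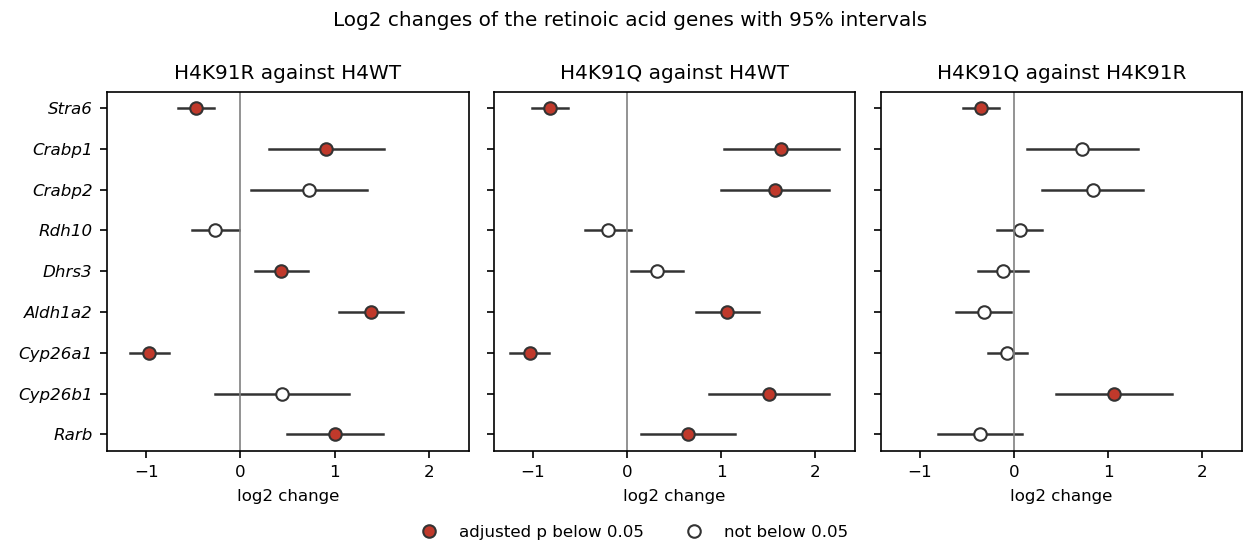
Log2 change (horizontal axis) of each gene in H4K91R against H4WT, H4K91Q against H4WT and H4K91Q against H4K91R, with 95% intervals from the edgeR fit as lines. Filled points have an adjusted p below 0.05: 6 of 9 genes on the left, 7 in the middle and 2 on the right, where Stra6 lies below 0 and Cyp26b1 above it.

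Ratios of counts within a library do not depend on how libraries are scaled to each other. The ratios to Cyp26a1 below partly restate its own fall in both mutants. Aldh1a2 had 5.14, 3.52 and 3.13 counts for every 100 of Cyp26a1 in H4WT replicates 1, 2 and 3. It had 18.0, 21.7 and 19.5 in H4K91R, and 17.7, 14.7 and 17.5 in H4K91Q. The groups did not overlap, and the Aldh1a2 count relative to that of Cyp26a1 was 5.12-fold higher in H4K91R and 4.31-fold higher in H4K91Q than in H4WT (ratio of geometric means). With 3 libraries against 3 the exact two-sided permutation p was 0.1, the smallest this design allows (0.15 after Benjamini-Hochberg adjustment over 12 comparisons of 4 ratios).

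Cyp26b1 had 3.14, 4.84 and 3.54 counts for every 100 of Cyp26a1 in H4WT, 5.62, 13.9 and 16.1 in H4K91R, and 19.5, 23.5 and 29.8 in H4K91Q. These groups did not overlap either. The mRNA count ratio of the 2 breakdown enzymes was thus 6.33-fold higher in H4K91Q and 2.85-fold higher in H4K91R than in H4WT (exact permutation p = 0.1 for each). In H4K91R, Cyp26a1 fell by 0.96 on the log2 scale, while the Cyp26b1 change of 0.44 did not pass (edgeR adjusted p = 0.293). In every library Cyp26a1 remained the larger of the 2 also per length. Rarb had 2.43, 2.23 and 3.27 counts for every 100 of Cyp26a1 in H4WT, 8.10, 12.8 and 9.73 in H4K91R, and 10.7, 7.54 and 6.33 in H4K91Q. All 6 mutant libraries were above H4WT, and the 2 mutants overlapped.

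**Figure D3:**
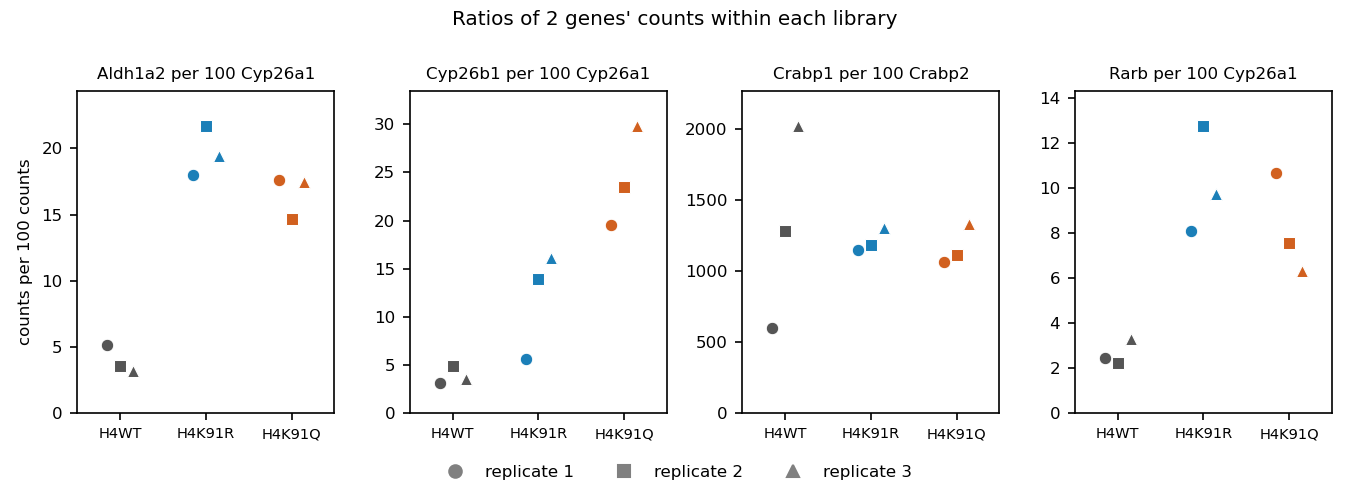
Counts of the first gene for every 100 counts of the second in each library (vertical axis, starting at 0), by group, 1 symbol per library. The 3 H4WT libraries lie below all mutant libraries for Aldh1a2, Cyp26b1 and Rarb relative to Cyp26a1, and they span both mutants for Crabp1 relative to Crabp2.

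Levels of different genes were compared per length, as CPM per kilobase of exon in GENCODE vM21. In H4WT Crabp1 was highest at 80.1 ± 34.0 CPM per kilobase (mean ± SD, n = 3), then Cyp26a1 at 45.2 ± 2.66, Stra6 at 12.3 ± 0.893 and Rdh10 at 8.63 ± 0.860. Crabp2 (4.25 ± 1.77) and Dhrs3 (3.33 ± 0.609) overlapped. Aldh1a2 followed at 1.54 ± 0.339, and Cyp26b1 (0.649 ± 0.188) and Rarb (0.449 ± 0.0947) overlapped at the bottom.

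In H4K91Q Crabp1 reached 256 ± 38.1 CPM per kilobase against 22.2 ± 2.53 for Cyp26a1, and Crabp2 came next at 13.4 ± 2.58. Rdh10 (7.57 ± 0.709) and Stra6 (6.98 ± 0.488) overlapped, followed by Dhrs3 (4.29 ± 0.126), Aldh1a2 (3.202 ± 0.0907), Cyp26b1 (2.001 ± 0.487) and Rarb (0.676 ± 0.150) with no further overlap. In H4K91R Crabp1 stood at 156 ± 59.0, Cyp26a1 at 23.2 ± 2.29, Stra6 at 8.85 ± 0.805, Crabp2 at 7.69 ± 2.41 and Rdh10 at 7.29 ± 1.01, the last 3 overlapping. Dhrs3 (4.66 ± 0.206) and Aldh1a2 (3.98 ± 0.210) followed, and Cyp26b1 (0.987 ± 0.400) and Rarb (0.879 ± 0.145) overlapped.

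The rest of the pathway was described by 4 lists with 85 genes, of which 66 could be tested. In H4K91R 20 rose and 14 fell, with a median log2 change of 0.10. In H4K91Q 25 rose and 15 fell, with the same median of 0.10, and between the mutants 3 rose and 1 fell. These are 30.3% and 21.2% of the tested list genes in H4K91R and 37.9% and 22.7% in H4K91Q, to be set beside the shares of all genes given above.

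Of the storage and transport genes 6 of 13 could be tested. In H4K91R 3 rose and 1 fell, with a median of 0.37, and in H4K91Q 3 rose and 2 fell, with a median of 0.41. Rbp4, the plasma carrier that Stra6 binds, rose by 0.83 ± 0.22 on the log2 scale in H4K91R and 0.84 ± 0.21 in H4K91Q, and Ttr, the partner of Rbp4 in plasma, by 0.78 ± 0.19 and 0.94 ± 0.18. Lrp2, a large endocytic receptor, changed by -0.67 ± 0.13 and -1.03 ± 0.13, from 487 CPM in H4WT to 305 and 238 CPM. Fabp5, a fatty acid binding protein that can also carry retinoic acid, fell in H4K91Q (-0.41 ± 0.0997). Lrat, which stores retinol as an ester, had 0 to 3 counts per library and could not be tested.

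Of the other synthesis and breakdown enzymes 16 of 24 could be tested. In H4K91R 2 rose and 4 fell, and in H4K91Q 4 rose and 3 fell. The relatives of Aldh1a2 that make retinoic acid parted. Aldh1a3 stood at 8.66, 6.56 and 4.90 CPM in H4WT, 30.7, 17.3 and 14.8 CPM in H4K91R, and 15.3, 9.72 and 10.5 CPM in H4K91Q, with every mutant library above every H4WT library. It rose by 1.67 ± 0.28 on the log2 scale in H4K91R (edgeR adjusted p = 3.33e-04) and by 0.83 ± 0.29 in H4K91Q (adjusted p = 0.0294).

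Aldh1a1 stood at 5.17, 4.19 and 3.06 CPM in H4WT, 1.90, 1.34 and 1.28 CPM in H4K91R, and 1.24, 1.74 and 1.52 CPM in H4K91Q. Every mutant library was below every H4WT library, and it changed by -1.42 ± 0.25 and -1.47 ± 0.24 (edgeR adjusted p = 5.20e-04 and 2.76e-04). Per kilobase, Aldh1a3 (1.06 to 1.88 CPM) and Aldh1a2 (1.24 to 1.91) overlapped in H4WT, and Aldh1a1 (0.620 to 1.05) was below both. In H4K91R Aldh1a3 ran from 3.199 to 6.64 CPM per kilobase, across the range of Aldh1a2 (3.74 to 4.13). Cyp1b1, a cytochrome P450 that can oxidise retinol, changed by -1.28 ± 0.18 and -0.68 ± 0.18, and Bco2, which cleaves carotenoids, rose by 1.15 ± 0.34 and 1.10 ± 0.32. Adh1, an alcohol dehydrogenase that acts on retinol, rose in H4K91Q by 2.31 ± 0.41 and was also higher there than in H4K91R (1.51 ± 0.37, edgeR adjusted p = 0.0350). Control counts were low for both: Bco2 had 4, 22 and 5 and Adh1 had 2, 38 and 4 in H4WT replicates 1, 2 and 3. Cyp26c1, the remaining Cyp26 enzyme, had 2 to 16 counts per library and could not be tested.

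All 20 receptor and cofactor genes could be tested; 4 rose and 3 fell in H4K91R, and 6 rose and 3 fell in H4K91Q. With library size scaling these splits were 8 and 1 and 9 and 1. That scaling raised the share of rises among all called genes as well, as given above. Rara, the broadly expressed receptor, passed in neither comparison, with log2 changes of 0.15 ± 0.084 and 0.082 ± 0.083. Rarg, the receptor gene of presomitic and mesenchymal tissue, stood at 22.7, 28.0 and 25.3 CPM in H4WT, 18.7, 17.0 and 17.1 CPM in H4K91R, and 21.1, 24.7 and 26.2 CPM in H4K91Q. The H4K91R libraries were below all others. It fell by 0.54 ± 0.11 in H4K91R (edgeR adjusted p = 0.00162) and was higher in H4K91Q than in H4K91R by 0.44 ± 0.11 (adjusted p = 0.0374). Rxra, a partner of all 3 receptors, rose by 0.56 ± 0.073 in H4K91R and by 0.60 ± 0.072 in H4K91Q. Rxrb changed by 0.19 ± 0.082, which did not pass, and rose by 0.22 ± 0.080 in H4K91Q. Nr2f1 and Nr2f2, orphan receptors that retinoic acid is known to induce, rose by 0.92 ± 0.12 and 0.66 ± 0.12 in H4K91R and by 0.72 ± 0.12 and 0.69 ± 0.12 in H4K91Q.

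Of the further retinoic acid targets 24 of 28 could be tested. In H4K91R 11 rose and 6 fell, with a median of 0.35, and in H4K91Q 12 rose and 7 fell, with a median of 0.44. Hoxa5 and Hoxb5, which pattern the neck and trunk level, rose by 2.03 ± 0.17 and 1.97 ± 0.15 in H4K91R and by 1.62 ± 0.17 and 1.54 ± 0.15 in H4K91Q. Hoxa4 rose by 1.70 ± 0.26 and 1.53 ± 0.26. Neurog2, a proneural factor, rose by 2.46 ± 0.38 and 1.84 ± 0.39, from only 3, 10 and 4 counts in H4WT replicates 1, 2 and 3. Rarres1, known as a retinoid-responsive gene of skin, changed by -1.95 ± 0.15 and -2.21 ± 0.14, from 16.4 CPM in H4WT to 4.23 and 3.52 CPM. Members of this target list passed in both directions within each mutant, and so did tested genes at large. Of all tested genes, 20.9% rose and 25.1% fell in H4K91R, and 22.5% rose and 23.8% fell in H4K91Q.

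**Figure D4:**
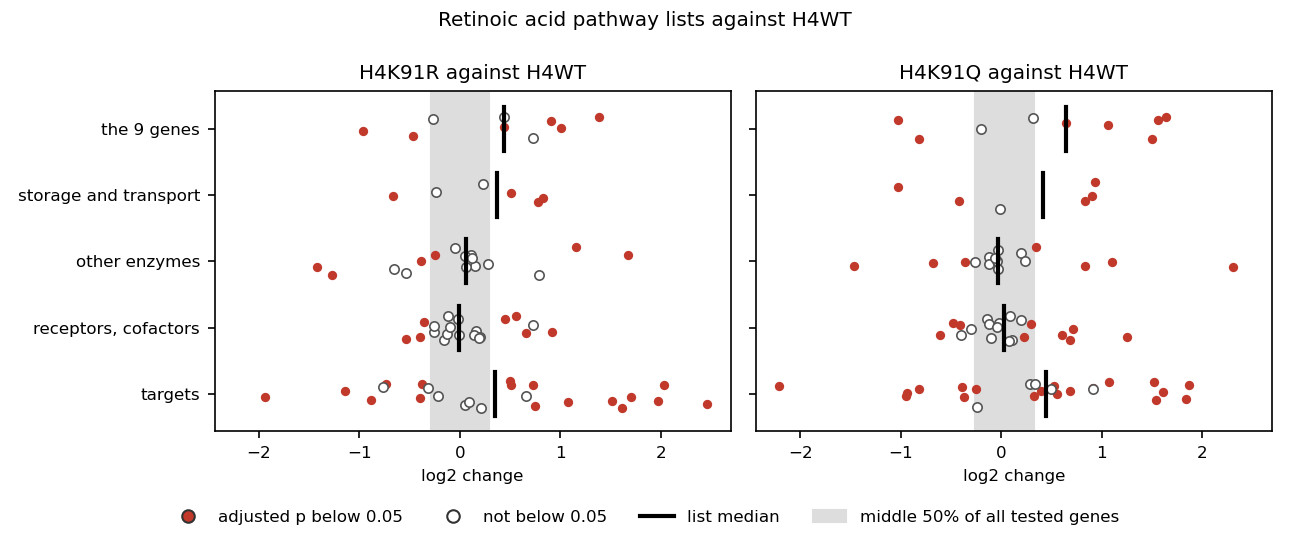
Log2 change against H4WT (horizontal axis) of the 9 genes and of the 4 pathway lists, 1 point per tested gene, filled where the adjusted p is below 0.05, with the list median as a bar and the middle 50% of all tested genes in grey. The medians of the 9 genes (0.44 and 0.64), of the targets (0.35 and 0.44) and of the storage and transport genes (0.37 and 0.41) lie to the right of the grey band. Those of the other enzymes (0.061 and -0.033) and of the receptors and cofactors (-0.013 and 0.030) lie inside it. Every group has filled points on both sides of 0, and tested genes at large passed in both directions too.

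The genes most alike in pattern were sought among 11332 tested genes of at least 5 CPM, by the Pearson correlation of log2 CPM over the 9 libraries. These libraries fall into 3 groups, so a high value mainly says that 2 genes share the differences between groups. Nearest to Aldh1a2 were Ddx39b (0.993), Nck2 (0.988) and Sobp (0.988). Nearest to Cyp26a1 were Cgref1 (0.993), Adam15 (0.992) and Fkbp9 (0.991). Those of Rarb were less alike, with St3gal6 (0.955), B9d2 (0.944) and Nap1l5 (0.941).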

How the data were processed

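Poly(A) RNA of 9 libraries was measured, 3 per group, with RNA from a QIAGEN kit and libraries from an NEBNext kit, per the labels. The authors deposited estimated counts per Entrez gene as whole numbers, for which Salmon 0.8.2, the build mm10 and DESeq2 (no version or role) are named per the submitters' processing notes. The sources used here do not give the annotation, strand setting, trimming or rounding. Estimated counts divide reads between overlapping or similar genes.

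IDs were matched to RefSeq symbols and coordinates (GRCm38.p6, 24045 of 24100). Of 186 listed names, 185 matched a symbol and 1 a synonym. No 2 libraries of a group agreed within sampling noise (chi-square per degree of freedom at least 4.07). Genes were filtered with filterByExpr (minimum count 10, by group), leaving 14761, scaled by TMM (factors 0.911 to 1.06) and fitted with edgeR 4.0.16 (R 4.3.3, quasi-likelihood, 1 mean per group, biological coefficient of variation 8.82%). Adjusted p is Benjamini-Hochberg over all tested genes, two-sided, threshold 0.05. A log2 change is given ± SE, the change divided by the square root of its F value. CPM uses the TMM-scaled total, and 1 count is worth 0.0370 to 0.122 CPM. Same-numbered H4K91Q and H4WT libraries deviated together (r of log2 CPM deviations from group means 0.19 to 0.24, 3 of 3 pairs over 0.1). The labels give only the number, so this pairing comes from the values. In each of the other 2 comparisons 1 of 3 pairs was over 0.1. Pairs of unlike number from different groups ran from -0.35 to 0.34, a wider range than that of same-numbered pairs. Within-library ratios used exact permutation tests.

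The members and lists were chosen with earlier results of these data known. All 9 members are named. From the other lists, called genes of at least 1 CPM were named, at most 5 a list and contrast by size of change, with close relatives of the members. Alternatives were RLE and library size scaling, no filter, DESeq2 1.42.0, a replicate block, compared groups only, and each library left out in turn. There were 4 pathway lists and 10 marker lists. Per-length values use exon-union lengths. Some genes of the lists are counted but not reported by name here.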

Additional observations from a re-analysis of the deposited data

Results flagged for a closer look

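Of the 9 genes, 2 differed in their response between the mutants by the test of the difference itself (H4K91Q against H4K91R, edgeR). Cyp26b1 differed by 1.06 on the log2 scale (2.88 to 6.99 CPM in H4K91R, 7.76 to 12.7 CPM in H4K91Q) and Stra6 by -0.35 (46.2 to 54.5 CPM against 37.6 to 43.2 CPM). Both adjusted p-values lay just below 0.05 (0.0488 and 0.0404). The libraries of the mutants did not overlap for either gene, but this does not set the 2 genes apart. Those of Aldh1a2, Crabp1, Crabp2 and Dhrs3 did not overlap either, and none of these passed (edgeR adjusted p = 0.187, 0.139, 0.0715 and 0.625). The share of all tested genes without overlap is not given here. Groups of 3 libraries are too small to flag a single library as far from the rest.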

How the results depend on the processing

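Against H4WT, none of the 9 genes changed direction under any alternative. Leaving out 1 library gave 4 to 8 called genes of the 9 in H4K91R and 6 to 7 in H4K91Q (6 and 7 in full), and 5851 to 6835 and 5837 to 6961 of all genes. Between the mutants the count was unstable: 0 to 4 of the 9 genes and 188 to 1093 of all genes were called without 1 library, against 2 and 761. All-gene counts were 410 without H4K91R replicate 1, 188 without H4K91R replicate 2, 298 without H4K91Q replicate 1 and 202 without H4K91Q replicate 2. In that comparison RLE scaling, library size scaling and the 2 mutants alone each called 1 of the 9 genes, and the replicate block called 4. The change of Cyp26a1 ran from -0.17 to 0.023 and that of Rdh10 from -0.024 to 0.17 without 1 library. That of Cyp26a1 turned to 0.023 without H4K91R replicate 1 and 0.0022 without H4K91Q replicate 1, and that of Rdh10 to -3.0e-04 without H4K91R replicate 2 and -0.024 without H4K91Q replicate 2, none of them past the threshold. The causes were not tested. The replicate block gave 7, 8 and 4 called genes of the 9 and 6751, 6840 and 1011 of all genes in the 3 comparisons. Libraries of the same number deviated together with r over 0.1 in 5 of 9 pairs (-0.22 to 0.24): in 3 of 3 for H4K91Q and H4WT, and in 1 of 3 for each other comparison, which share only a number. Pairs of unlike number from different groups ran from -0.35 to 0.34. In H4K91Q against H4WT the block added the call of Dhrs3 (adjusted p = 0.0407) and changed no other call among the 9 genes; the pathway lists lost no call and gained Nrip1 (0.0431) and Tgm2 (0.0113), named after their values were seen. In 10 of 18 cases a library correlated best with its own number in another group. Each case had 3 candidate libraries and the cases share libraries, so this count alone does not establish a pairing. Among the 9 genes, Rarb, Cyp26b1, Crabp2 and Aldh1a2, with as few as 17 to 24 counts in a library, have the widest counting error. Some named list genes had fewer, among them Adh1, Neurog2 and Bco2, with as few as 2, 3 and 4 counts in an H4WT library.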
